A study of Homo sapiens with 6 samples.

Results

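The mitochondrial ribosomal protein genes were taken as every gene in the count files whose symbol starts with MRPL or MRPS and a number, with at most 1 letter after it. This gave 78 of 60609 genes, 49 MRPL and 29 MRPS. Expression was measured by strand-specific RNA-seq of polyadenylated RNA from K562, an established leukaemia cell line with erythroid features. Cells of both groups had endogenous EP400 fused to dTAG, a tag for induced degradation, and were given 500 nM dTAGV-1 for 24 h. They carried in addition either exogenous WT EP400 (WT, 3 libraries) or exogenous Delta-TRRAP EP400 (Delta-TRRAP, 3 libraries), in which the segment that holds TRRAP, the large scaffold subunit shared with other coactivator complexes, is deleted. EP400 is the ATPase and scaffold of the TIP60 complex, which exchanges histone H2A.Z and acetylates histones. The question addressed here was whether mRNA of mitochondrial ribosome genes differed between cells with the 2 forms of EP400. Each form was studied in 1 clone according to the methods of the study, so clone and genotype cannot be told apart. The methods call the 3 libraries of a line biological replicates. The p-values measure the spread between libraries of 1 clone and not between clones.

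Mitochondria translate the few proteins encoded in their own DNA on ribosomes that differ from those of the cytosol. The RNA of these ribosomes is made from mitochondrial DNA, whereas all of their proteins are encoded in the nucleus, made in the cytosol and imported. Some of the proteins have counterparts in the bacterial ribosome, and others are found in mitochondria alone. MRPL symbols were given to proteins of the large subunit, which forms the peptide bond, and MRPS symbols to those of the small subunit, which reads the mRNA. The symbols MRPS18A and MRPS30 are exceptions, since both proteins sit in the large subunit, and MRPS36 is a component of the 2-oxoglutarate dehydrogenase complex and not of the ribosome. The binding motifs of NRF1, of the ETS factor GABP and of YY1 are well known in promoters of nuclear genes for mitochondrial proteins.

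Promoters of members with large changes in either direction are shown first, because the motif counts given later rest on such windows. The sequences come from RefSeq on GRCh38.p14, read 5′ to 3′ on the strand of the gene and numbered from the base before the start site as -1. Capitals mark a match to 1 of the 4 motifs searched. MRPS28, which fell about as much as MRPS26, is not shown. For MRPL36 the stretch was limited to bases outside annotated exons. MRPL36, MRPL1, MRPS12 and MRPS26 were lower in Delta-TRRAP, and MRPL22 and MRPS10 were higher.
MRPL36 (chr5:1799896-1799957, minus strand, bases -120 to -59): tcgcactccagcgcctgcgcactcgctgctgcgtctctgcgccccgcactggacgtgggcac
MRPL1 (chr4:77862710-77862829, plus strand, bases -120 to -1): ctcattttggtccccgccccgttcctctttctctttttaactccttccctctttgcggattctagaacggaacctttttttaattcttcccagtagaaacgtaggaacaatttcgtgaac
MRPS12 (chr19:38930824-38930943, plus strand, bases -120 to -1): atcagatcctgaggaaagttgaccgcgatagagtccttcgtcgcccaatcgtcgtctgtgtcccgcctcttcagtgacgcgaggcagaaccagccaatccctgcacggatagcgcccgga
MRPS26 (chr20:3045932-3046051, plus strand, bases -120 to -1): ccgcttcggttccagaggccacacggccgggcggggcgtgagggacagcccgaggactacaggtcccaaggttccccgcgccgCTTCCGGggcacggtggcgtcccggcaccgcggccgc
MRPL22 (chr5:154940953-154941072, plus strand, bases -120 to -1): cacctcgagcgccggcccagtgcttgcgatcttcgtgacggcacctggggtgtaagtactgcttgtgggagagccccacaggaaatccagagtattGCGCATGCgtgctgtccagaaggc
MRPS10 (chr6:42217862-42217981, minus strand, bases -120 to -1): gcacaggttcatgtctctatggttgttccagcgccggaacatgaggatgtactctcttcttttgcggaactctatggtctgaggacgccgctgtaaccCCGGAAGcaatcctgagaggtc

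The libraries held between 35076835 and 42616061 counted reads, with 39966818 or more in each WT library and 38491513 or fewer in each Delta-TRRAP library. EP400 RNA was measured at 4924 to 5425 normalized counts in WT against 4350 to 6694 in Delta-TRRAP. These counts include the tagged endogenous gene and the transgene, so they do not check the deletion. A normalized count is a read count divided by a size factor of its library, obtained by TMM. Of the 9 K562 markers examined, all had counts in every library, and their sum ran from 35191 to 36903 in WT and from 48957 to 54328 in Delta-TRRAP. Of these markers 5 were higher and 2 lower: the haemoglobin gene HBZ went from a mean of 1451 to 10585, while LMO2 was at -1.16 ± 0.05 and GATA1 at -0.21 ± 0.05 on the log2 scale. The label calls the cells lymphoblasts. Of 5 lymphoid markers, 4 had counts in every library and MS4A1 had none. Their sum was 490 to 500 in WT against 415 to 450 in Delta-TRRAP, mostly from CD3D at means of 437 and 384. Of 8 fibroblast markers, COL1A2 alone passed the test and brought the sum from 32.8 to 58.5 in WT to between 899.8 and 942.6 in Delta-TRRAP, while LUM and PDGFRA had no count. The part of these shifts in the results below was not tested.

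Of the 78 members, 77 had a mean of at least 5 normalized counts and were tested. MRPL53 was the exception, with 1 read in Delta-TRRAP replicate 3 and no read in the other 5 libraries. Compared with WT, 43 members were lower in Delta-TRRAP and 5 were higher at an adjusted p of 0.01 or less (quasi-likelihood test of edgeR, adjusted by Benjamini-Hochberg over 19114 genes), and 29 did not pass. Among all genes tested, 28.9% were lower and 29.6% were higher. When counts were scaled by library size in place of TMM, 35 members were lower and 12 higher. Of all genes, 21.2% were then lower and 37.7% higher, and their median moved from 0.01 to 0.17 on the log2 scale. The members' median log2 fold change minus that of all genes was -0.27 and -0.28 under the 2 scalings. A change of scaling moves all genes by nearly the same amount. This difference could therefore hardly change, and it is no check on the scaling.

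Highly expressed genes were lower more often than the average gene, and most members were highly expressed. Among the 6803 genes with a mean of at least 1000 normalized counts, 48.4% were lower and 20.7% were higher, and their median log2 fold change was -0.17. Of the 66 members at that level, 38 were lower and 5 were higher, with a median of -0.29. The share of lower members at this level was 57.6%. The excess of lower members over genes of similar level was therefore much smaller than the excess over all genes. The changes were mostly under 2-fold. With the added requirement of a 2-fold change, 2 members passed, both lower, against 6.34% of all genes lower and 16.2% higher. The 3 libraries of each group did not overlap for 51 members lying lower in Delta-TRRAP and 8 lying higher, where 35.1% and 36% of all genes did so. At 1000 or more normalized counts, this held for 44 and 8 of the 66 members and for 3684 and 1682 of the 6803 genes. In every member that passed the test the groups were separate.

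**Figure D1:**
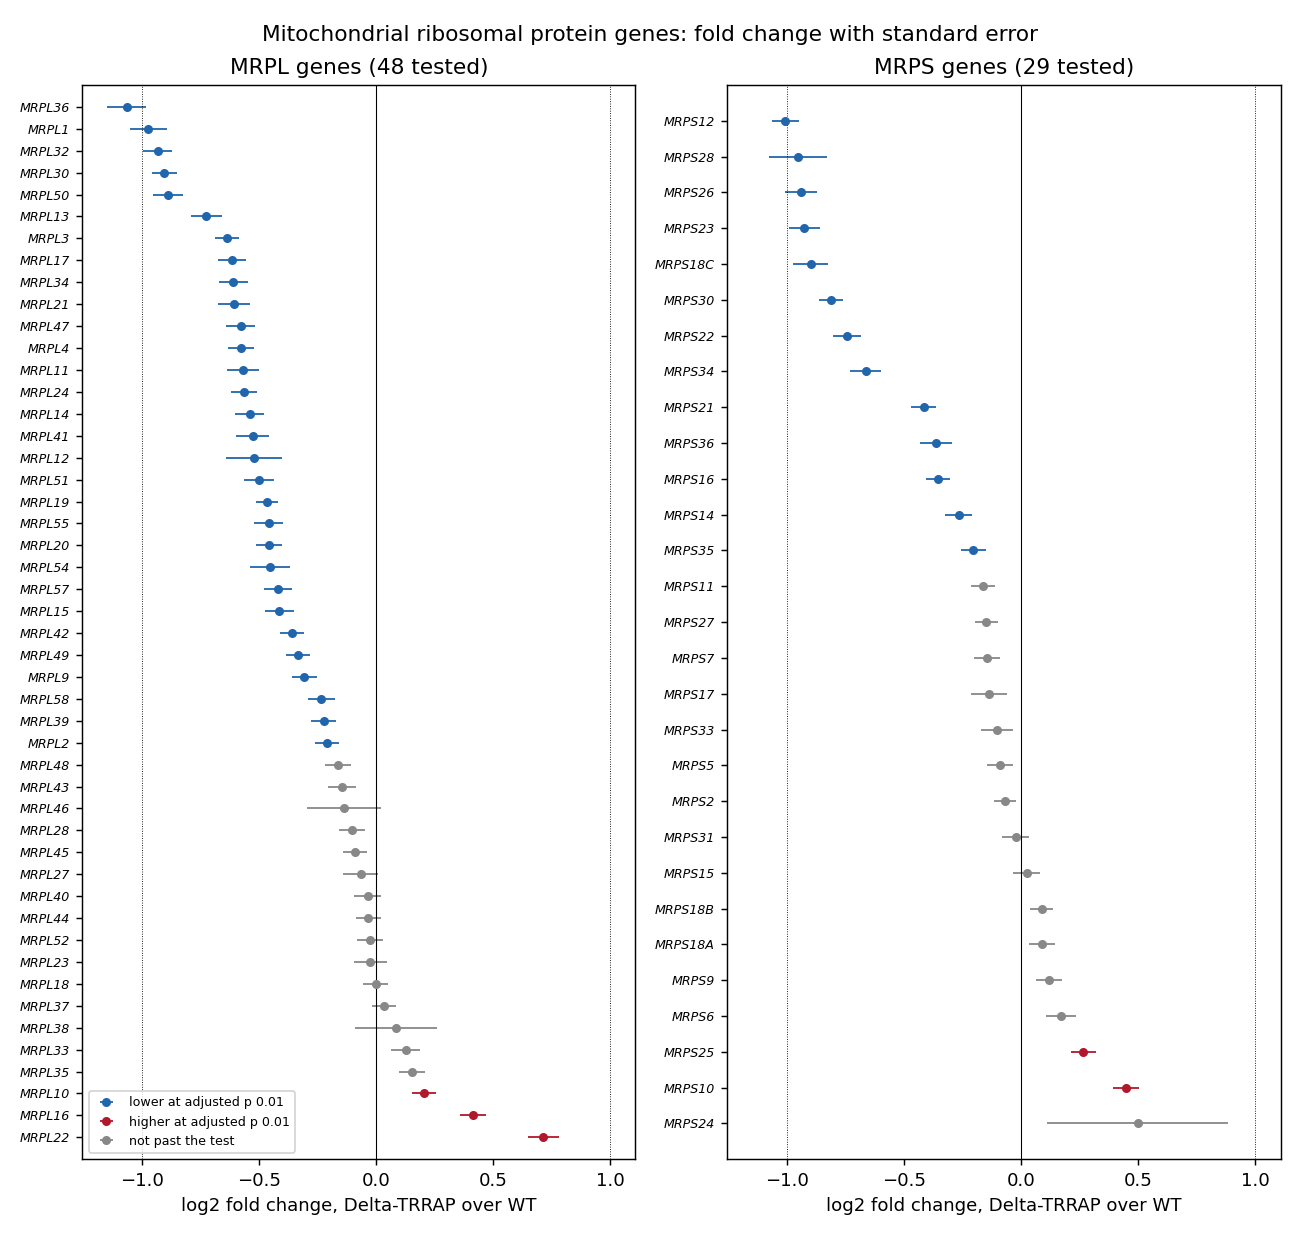
Log2 fold change of Delta-TRRAP over WT for the 77 tested members, with MRPL genes on the left and MRPS genes on the right; points are estimates, bars are standard errors, and colours give the call at adjusted p 0.01. Estimates ran from -1.06 for MRPL36 to 0.71 for MRPL22, and dotted lines mark a 2-fold change.

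Lower genes made up 62.5% of the large-subunit symbols and 44.8% of the small-subunit symbols, beside 28.9% of all genes and 48.4% of those with at least 1000 normalized counts. The MRPS share was thus no higher than that of highly expressed genes. Of 48 tested MRPL genes, 30 were lower, 3 were higher and 15 did not pass, and their median log2 fold change was -0.39. Of 29 MRPS genes, 13 were lower, 2 were higher and 14 did not pass, with a median of -0.15. By library size scaling the MRPS median was 0.01 and the MRPL median was -0.23, so the direction for MRPS genes as a group depended on the scaling. The difference between the subunits itself was not tested. Placing MRPS18A and MRPS30 with the large subunit and leaving out MRPS36 gave 31 lower of 50 for the large subunit and 11 lower of 26 for the small.

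Summed over the members, MRPL mRNA was 158587 ± 7758 normalized counts in WT and 123528 ± 6056 in Delta-TRRAP (SD, n = 3), a change of -22.1%. The corresponding MRPS sums were 97960 ± 3131 and 82232 ± 3834 (SD, n = 3), a change of -16.1%. In CPM without further scaling, the MRPL sum fell by 13.1% and the MRPS sum fell by 6.40%. In both scales for MRPL, and in normalized counts for MRPS, each Delta-TRRAP library lay under each WT library. In CPM, the MRPS sum was 2301 to 2437 in WT against 2121 to 2304 in Delta-TRRAP, so the groups overlapped. Delta-TRRAP replicate 2 gave the lowest value of its group for 70 of the 77 tested members. Without it, 43 members were lower and 7 were higher, beside 28.9% and 28.7% of all genes.

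Within the large subunit, members with a bacterial counterpart were lower more often than those found in mitochondria alone. Among the former, 21 of 30 were lower and 3 were higher, with a median log2 fold change of -0.49. Among the latter, 9 of 18 tested were lower and 9 did not pass, with a median of -0.19. In the small subunit the order was the other way round by share, with 6 of 17 lower among bacterial counterparts and 5 of 9 among mitochondria-specific members, at medians of -0.14 and -0.20. The shares of lower members, in the order given, were 70%, 50%, 35.3% and 55.6%. Of all genes tested 28.9% were lower, and of those with at least 1000 normalized counts 48.4%. These are descriptions of the members and were not tested against each other.

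The largest fall of the family was that of MRPL36, the counterpart of the smallest protein of the bacterial large subunit. The gene (ENSG00000171421.13) lies on chromosome 5 from 1798385 to 1801366 on the minus strand. It had 2045, 1994 and 1637 normalized counts in WT replicates 1 to 3 and 950, 816 and 953 in those of Delta-TRRAP. The highest Delta-TRRAP library was thus well under the lowest WT library. Its log2 fold change was -1.06 ± 0.08 (SE), or 2.09-fold lower, with an adjusted p of 1.84e-08 in edgeR.

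MRPL1 encodes a protein of the mobile stalk where the spent tRNA leaves the ribosome. It had 5710, 5148 and 4658 normalized counts in WT against 2800, 2346 and 2772 in Delta-TRRAP, a log2 fold change of -0.97 ± 0.08. MRPL32, whose product is trimmed by a mitochondrial protease before it joins the ribosome, had 7495, 6873 and 6427 in WT and 3726, 3371 and 3803 in Delta-TRRAP, a log2 fold change of -0.93 ± 0.06. MRPL30 went from 6677, 6412 and 6033 to 3517, 3318 and 3393, a log2 fold change of -0.90 ± 0.05. Replicate 3 was the lowest WT library in each of these genes, and it still lay far above every Delta-TRRAP library.

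MRPL50, a mitochondria-specific protein, had a log2 fold change of -0.89 ± 0.06, with 4895 to 5829 normalized counts in WT against 2717 to 2916 in Delta-TRRAP. MRPL13, the counterpart of a bacterial protein that joins early in assembly, had 5797 to 6998 in WT against 3683 to 4053 in Delta-TRRAP, a log2 fold change of -0.72 ± 0.07. MRPL3 lies close to the catalytic centre and is among the most highly expressed members. Its values were 11967 to 13144 in WT against 7693 to 8205 in Delta-TRRAP, a log2 fold change of -0.64 ± 0.05. The other 23 MRPL genes that were lower had log2 fold changes between -0.61 and -0.21.

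A pair of large-subunit proteins with known further roles were also lower. MRPL12 forms the stalk that recruits translation factors, and it has been reported to bind the mitochondrial RNA polymerase. It had 250, 197 and 224 normalized counts in WT and 174, 136 and 157 in Delta-TRRAP, a log2 fold change of -0.52 ± 0.12 (adjusted p 0.0012, edgeR). These counts leave out most of the gene, for a reason given with the levels below. MRPL58, a peptidyl-tRNA hydrolase that has become part of the ribosome, had 2030 to 2212 in WT against 1695 to 1911 in Delta-TRRAP, a log2 fold change of -0.23 ± 0.06 (adjusted p 0.0019, edgeR). By library size scaling neither of them passed, with log2 fold changes of -0.36 and -0.08.

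Of the small-subunit genes, MRPS12 fell the most. It encodes the protein that lines the decoding centre, the counterpart of the bacterial protein in which streptomycin resistance mutations arise. The gene (ENSG00000128626.11) lies on chromosome 19 from 38930944 to 38933168 on the plus strand. It had 1962, 1968 and 1838 normalized counts in WT and 1004, 895 and 973 in Delta-TRRAP. The values within each group were close to each other and the groups did not overlap. Its log2 fold change was -1.01 ± 0.06, or 2.01-fold lower, with an adjusted p of 6.12e-10 in edgeR.

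MRPL36 and MRPS12 lay just past the 2-fold limit, and MRPL1 at -0.97 and MRPS28 at -0.95 lay just inside it. How many members passed that limit depended on single libraries. Without WT replicate 3 there were 6, without Delta-TRRAP replicate 1 there were 4, without Delta-TRRAP replicate 3 there were 3, without WT replicate 2 there was 1, and without Delta-TRRAP replicate 2 there were 0. DESeq2 called 1.

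MRPS26 and MRPS23, both mitochondria-specific, had log2 fold changes of -0.94 ± 0.07 and -0.92 ± 0.07. MRPS26 had 893, 897 and 879 normalized counts in WT and 509, 430 and 453 in Delta-TRRAP. MRPS23 had 7311, 6693 and 6047 in WT and 3696, 3311 and 3556 in Delta-TRRAP. They had nearly the same fold change although their counts differed several-fold. MRPS28, related to the largest protein of the bacterial small subunit, was measured at 145 to 173 in WT against 79.3 to 81.3 in Delta-TRRAP, a log2 fold change of -0.95 ± 0.12. Like those of MRPL12, these counts leave out most of the gene, since 56.2% of its exon bases are shared with another gene. MRPS22, in which inherited variants cause oxidative phosphorylation deficiency, had 7515 to 8679 in WT against 4515 to 4997 in Delta-TRRAP, a log2 fold change of -0.74 ± 0.06.

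The 3 MRPS18 paralogues differed. Each replaces the same bacterial protein family, but MRPS18A sits in the large subunit and the other 2 in the small subunit. MRPS18C had 5237, 4835 and 4149 normalized counts in WT and 2691, 2415 and 2525 in Delta-TRRAP, a log2 fold change of -0.90 ± 0.07 (adjusted p 3.27e-08, edgeR). MRPS18A had 2180 to 2270 in WT against 2197 to 2492 in Delta-TRRAP, a log2 fold change of 0.09 ± 0.06 (adjusted p 0.16, edgeR). MRPS18B had 1876 to 1913 in WT against 1981 to 2087 in Delta-TRRAP, a log2 fold change of 0.09 ± 0.05 (adjusted p 0.12, edgeR). For MRPS18C the groups were far apart, for MRPS18A they overlapped, and for MRPS18B they were separate by a small margin. By library size scaling MRPS18A and MRPS18B passed as higher, both at a log2 fold change of 0.25.

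MRPS30, the other MRPS symbol of the large subunit, was lower. It had 5614, 5572 and 5414 normalized counts in WT and 3148, 3030 and 3279 in Delta-TRRAP, a log2 fold change of -0.81 ± 0.05. MRPS36, the dehydrogenase component, had 1354, 1273 and 1169 in WT and 970, 921 and 1060 in Delta-TRRAP, a log2 fold change of -0.36 ± 0.07 (adjusted p 0.000203, edgeR). It did not pass by library size scaling, at -0.21 (adjusted p 0.0123, edgeR). The other 5 lower MRPS genes had log2 fold changes between -0.66 and -0.20.

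**Figure D2:**
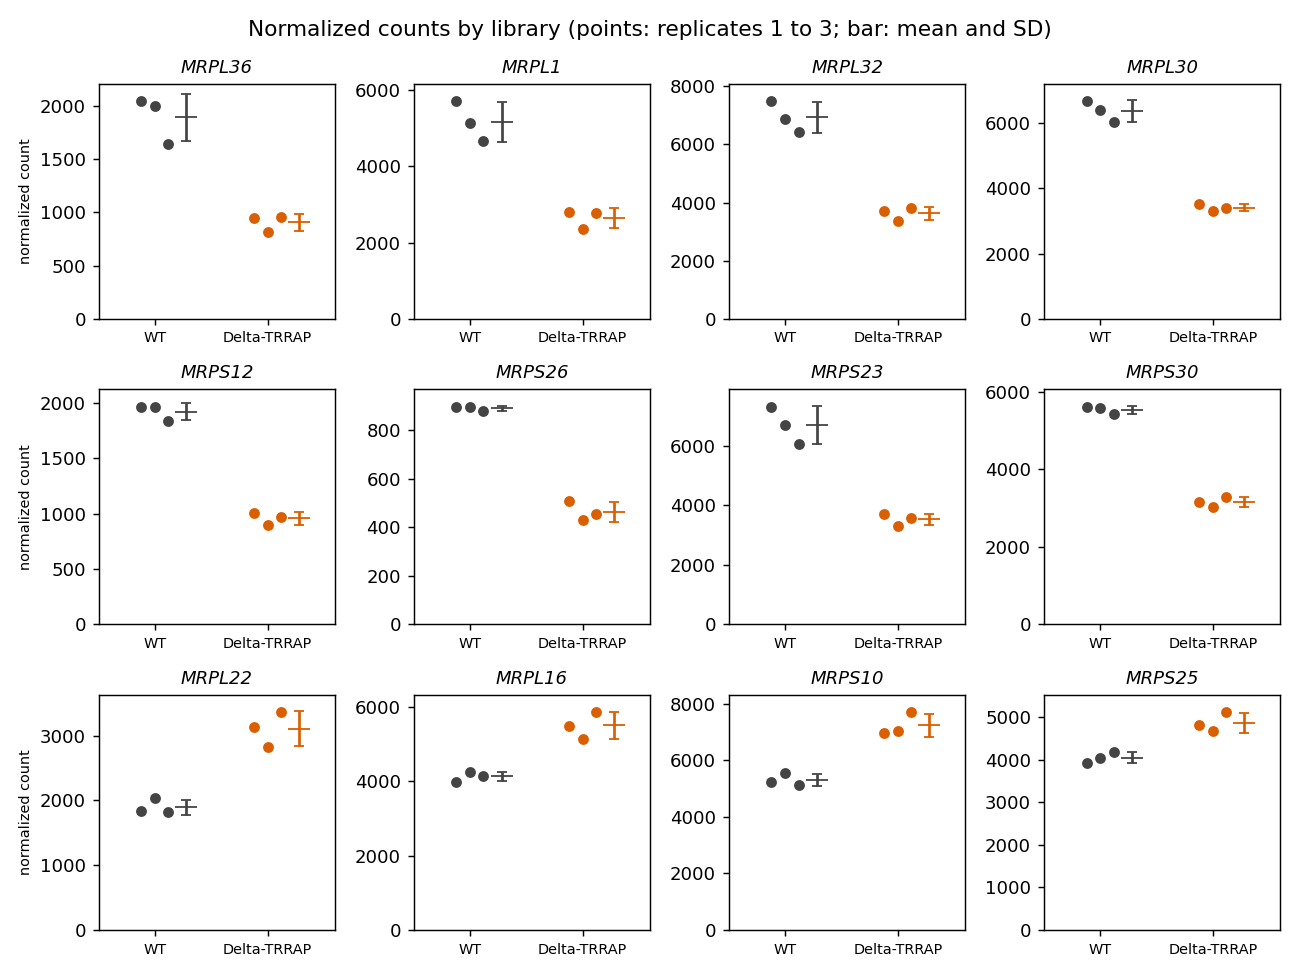
Normalized count in each library for 12 members with large changes, 8 lower (upper 2 rows) and 4 higher (bottom row); points are libraries, and the bar beside them is the mean with SD of 3 libraries. The axes start at 0, and in each panel all libraries of one group lie on one side of those of the other.

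Higher members were few. MRPL22, a protein that lines the exit tunnel of the nascent chain, had 1830, 2029 and 1821 normalized counts in WT and 3134, 2823 and 3363 in Delta-TRRAP. Every Delta-TRRAP library was above every WT library, and the log2 fold change was 0.71 ± 0.07, or 1.64-fold higher (adjusted p 1.4e-07, edgeR). MRPS10, which lies in the head of the small subunit, had 5223, 5547 and 5134 in WT and 6955, 7030 and 7704 in Delta-TRRAP, a log2 fold change of 0.45 ± 0.05. MRPL16, near the tRNA sites of the large subunit, had 3991 to 4248 in WT against 5147 to 5863 in Delta-TRRAP, a log2 fold change of 0.41 ± 0.06. MRPS25, a mitochondria-specific protein, had 3925 to 4181 in WT against 4672 to 5123 in Delta-TRRAP, a log2 fold change of 0.27 ± 0.05. MRPL22, MRPS10, MRPL16 and MRPS25 passed under each of the 15 alternative fits. MRPL10, the base of the stalk that carries MRPL12, had 1507 to 1574 in WT against 1711 to 1836 in Delta-TRRAP, a log2 fold change of 0.21 ± 0.05 (adjusted p 0.0023, edgeR). The call of MRPL10 was lost without WT replicate 1, WT replicate 3 or Delta-TRRAP replicate 1, at adjusted p of 0.0141, 0.0197 and 0.0104.

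Apart from MRPL12, the proteins of the finished ribosome are held in equal copy number, and their mRNA levels were compared per length of the Ensembl canonical transcript. The highest MRPL genes were MRPL32 and MRPL3, with means of 6149 and 5998 normalized counts per kilobase over the 6 libraries. Of the MRPS genes, MRPS22 and MRPS15 were highest, at 5334 and 5014. The lowest of their subunits were MRPL53, MRPL38 at 36.1, MRPS24 at 21.4 and MRPS28 at 140.3. In these 4, between 56.2% and 99.2% of exon bases are shared with another annotated gene on the same strand. Counting in union mode drops reads that fall in 2 genes, so these low values cannot be read as low expression.

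The share of exon bases held in common with another gene was 99.2% for MRPL53, 94.3% for MRPL38, 90.9% for MRPS24, 73.4% for MRPL46, 69.5% for MRPL12 and 56.2% for MRPS28. All 6 were among the 7 members with under 200 normalized counts per kilobase, and the seventh, MRPS17, shared 29.4%. For MRPS24, a protein of the small subunit where mRNA enters, this left 9.65 to 14.3 normalized counts in WT against 7.64 to 24.3 in Delta-TRRAP. Its log2 fold change of 0.50 ± 0.39 (adjusted p 0.27, edgeR) thus rests on few reads, and the groups overlapped. MRPL38, of the central protuberance, had 46.2 to 48.2 in WT against 45.8 to 60.2 in Delta-TRRAP, a log2 fold change of 0.09 ± 0.18. MRPL46 and MRPS17 were singled out after the values were seen.

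Among the 69 members that shared no more than 20% of exon bases, 40 were lower and 5 higher, with a median log2 fold change of -0.31. Their levels per kilobase spanned 322 to 6149 for 44 MRPL genes, a 19.1-fold range with a median of 1975. For 25 MRPS genes they spanned 365 to 5334, a 14.6-fold range with a median of 1508. Across the 77 tested members, log2 fold change had a Pearson r of -0.12 with log2 mean count and of 0.06 with log2 transcript length. The members share their libraries, and these correlations are descriptions.

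**Figure D3:**
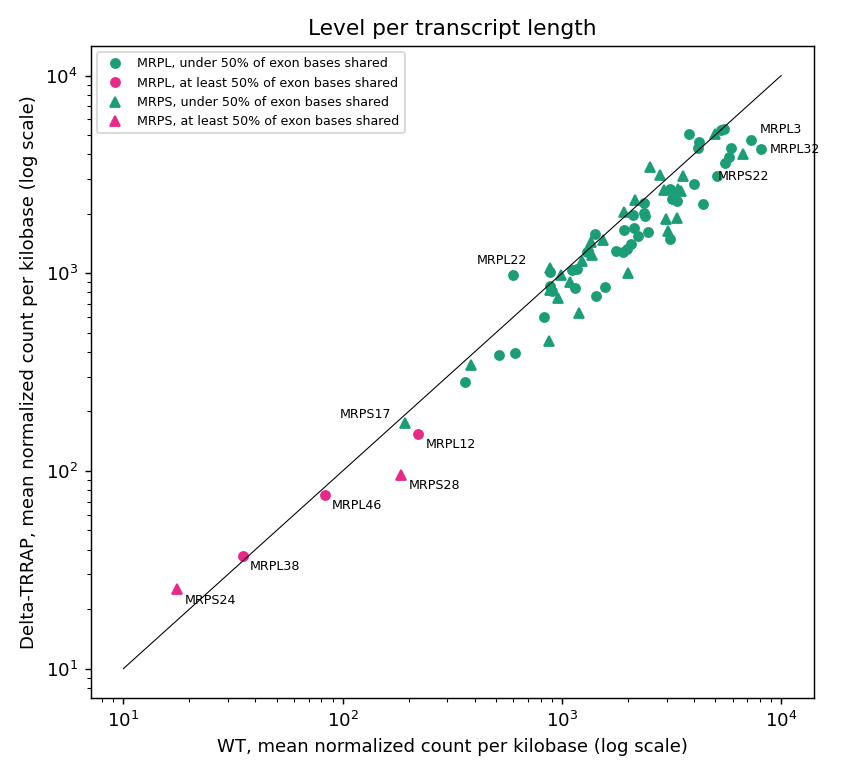
Mean normalized count per kilobase of canonical transcript in WT (x axis) and Delta-TRRAP (y axis), both on log scales, for the 77 tested members; the line marks equal levels. The 5 tested members that share at least 50% of exon bases with another gene (pink) lie at the low end, each under 200 over the 6 libraries, and 62 of the 77 members had a log2 fold change below 0.

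Members lie on 21 chromosomes, and their changes were set beside those of their surroundings. For each member the median log2 fold change was taken over up to 10 genes on each side with a mean of at least 100 normalized counts, other members left out. Of 77 tested members, 54 (70.1%) were below their neighbours' median. Among other genes with at least 1000 normalized counts the share was 55.5%, and among members at that level it was 71.2%. Of the 43 lower members 42 were below, as were 91.2% of other lower genes at that level, so this count mostly follows from the choice of lower genes. MRPS36 was the exception, at -0.36 with a neighbour median of -0.40. The members' difference from their neighbours had a median of -0.28 on the log2 scale, against -0.06 for the other genes of at least 1000 normalized counts. Members were at least 0.3 below their neighbours in 37 cases and at least 0.3 above in 5. Other genes were not counted at this limit, so these counts have no baseline.

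Some of the members with large changes lay among genes that had shifted the same way. For MRPL22 the neighbour median was 0.82, above its own value of 0.71. The neighbour median of MRPL36 was -0.67 and that of MRPS12 was -0.56, against -1.06 and -1.01 for the members. For MRPL1, MRPS30 and MRPS22 the neighbour medians were -0.38, -0.39 and -0.37. The neighbour median was at or under -0.3 for 9 members and at or over 0.3 for MRPL22 alone. By contrast MRPS10, MRPL16 and MRPS25 were higher among neighbours with medians of -0.15, 0.02 and -0.06. Across the 77 members, the Pearson r of log2 fold change with the neighbour median was 0.44, as a description, since members and neighbours share libraries and members near each other share neighbours.

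Many genes for mitochondrial proteins start back to back with another gene. For 29 members a tested partner on the opposite strand was found, after the values of the members had been seen. A partner had to start within 1000 bases upstream or overlap the member's start by at most 200 bases. MRPL46 and MRPS11 are each other's partner and counted on both sides. Of 17 lower members with such a partner, 7 had a lower partner, 4 a higher one and 6 one that did not pass. For reference, 28.9% of all genes tested were lower and 29.6% higher. At 1000 or more normalized counts the shares were 48.4% and 20.7%. The median over partners was -0.01 on the log2 scale, and the Pearson r across the 29 pairs was 0.25, again as a description.

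MRPL47 was at -0.58 while NDUFB5, a subunit of respiratory complex I that starts 156 bases away, was at 0.57 ± 0.06 (adjusted p 4.88e-07, edgeR). MRPL14 was at -0.54 while TMEM63B, a membrane channel gene, was at 1.14 ± 0.05. In these pairs both genes passed the test in opposite directions. MRPS12 and SARS2, the mitochondrial seryl-tRNA synthetase, were both lower, SARS2 at -0.51 ± 0.14 from means of 80.5 and 56.3 normalized counts. MRPL32 was lower together with PSMA2, a proteasome subunit, at -0.59 ± 0.09 from means of 327 in WT and 218 in Delta-TRRAP. MRPL49 was at -0.33 and its partner FAU, a fusion of a ubiquitin-like protein with a cytosolic ribosomal protein, was at -0.67 ± 0.07. The pairs described were chosen after their values were seen. Exon sharing with other genes was examined for the members alone and not for their partners.

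**Figure D4:**
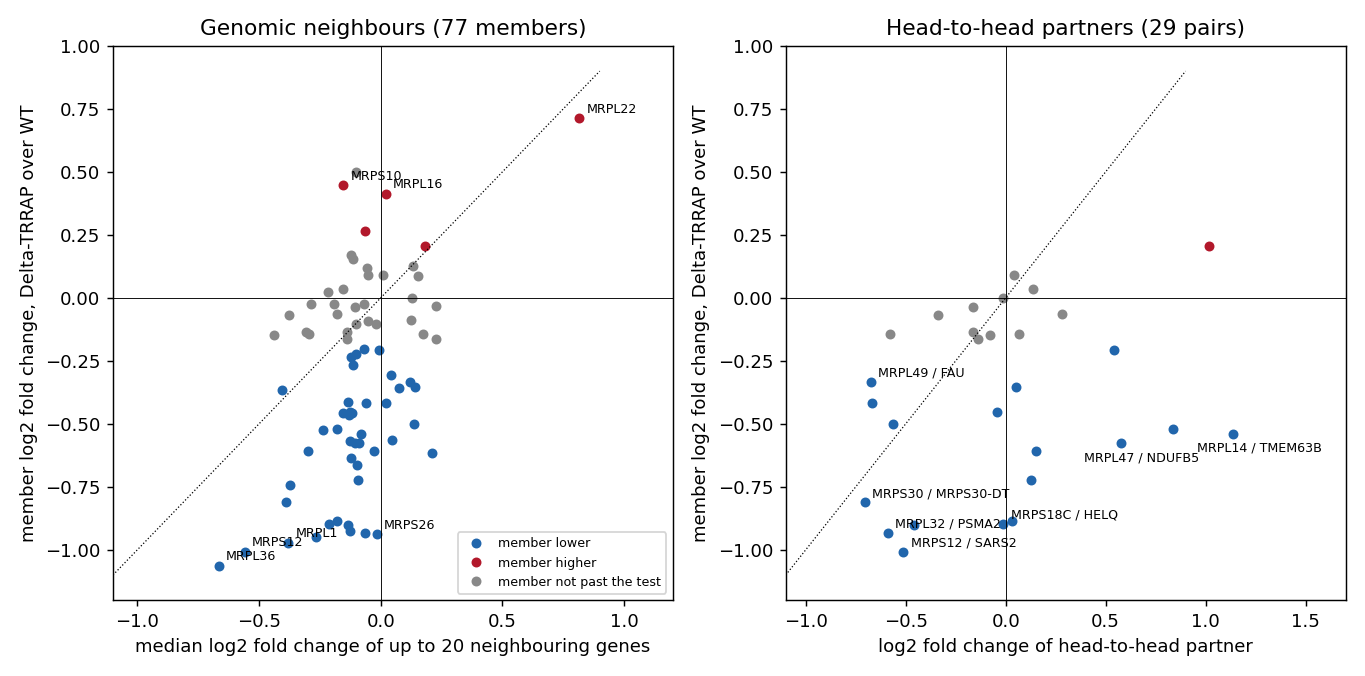
Log2 fold change of each member (y axis) against the median of its neighbouring genes (left, 77 members) and against its head-to-head partner (right, 29 pairs), coloured by the call of the member; the dotted line marks equal values. Lower members lie mostly under the line on the left, and on the right their partners spread from -0.70 to 1.14.

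Promoter windows from 250 bases before to 50 bases after the start were matched for 69 of the 78 members. Motifs were searched as exact letters on both strands: CCGGAAG for the ETS family, AAGATGG for YY1, GCATGCGC for the NRF1 motif and CACGTG for the E-box bound by MYC and related factors. The ETS motif was found in 43.5% of members, in 12.2% of 27305 genes in the table and in 26.7% of tested genes with at least 1000 normalized counts. The YY1 motif was found in 34.8% of members, in 7.11% of all and in 11.8% of the highly expressed genes. For the NRF1 motif the shares were 8.7%, 3.68% and 7.58%, and for the E-box 13%, 8.77% and 13.5%. ETS and YY1 motifs were thus the frequent ones in members.

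The motifs occurred at similar shares in lower members and in those that did not pass. Of the 37 lower members with a window, 40.5% held the ETS motif, 35.1% the YY1 motif, 8.11% the NRF1 motif and 10.8% the E-box. Of the 27 that did not pass, the shares were 44.4%, 33.3%, 7.41% and 14.8%. Some members have more than 1 window in the table, and the shares above count a match in any of them. Positions were taken from the first window of each member, which left 29 members with an ETS match and 23 with a YY1 match. Matches to ETS lay mostly just before the start, at a median position of -22 with 33 of 39 upstream. Matches to YY1 had a median position of 10 bases after the start, with 16 of 24 downstream of it.

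In the sequences shown above, MRPS26 has an ETS match 37 bases before its start and MRPS10 has one at 22 bases, so the motif occurs in a member that was lower and in one that was higher. The stretch of MRPL22 holds the NRF1 motif at -24. MRPS12 has an ETS match at -5 that runs past the end of the stretch shown, and MRPL36 has an E-box at -56 and a YY1 match at -34, both in annotated exon bases that are not shown. The window of MRPL1 held no match. A match is a run of letters, and binding was not measured here.

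Of 8 tested genes for factors linked to mitoribosomal promoters, 5 were lower and 3 did not pass, with a median log2 fold change of -0.20. This is a short list, set beside 48.4% lower among genes of at least 1000 normalized counts, and by library size scaling YY1 and GABPB1 alone stayed lower. YY1 had 8854 to 9020 normalized counts in WT against 5823 to 5890 in Delta-TRRAP, a log2 fold change of -0.61 ± 0.05. GABPB1, the partner of the ETS factor GABPA, was at -0.40 ± 0.05 and NRF1 at -0.28 ± 0.06. ESRRA, a nuclear receptor that drives mitochondrial genes, was at -0.23 ± 0.06. By library size scaling NRF1 and ESRRA were at -0.12 and -0.07 and did not pass. GABPA itself was at -0.16 ± 0.05 (adjusted p 0.0085, edgeR), and its call was lost in 12 of 15 alternatives, with adjusted p from 0.0103 to 0.942. MYC was at 0.02 ± 0.05 (adjusted p 0.79, edgeR), with 8695 to 9128 in WT against 8806 to 9076 in Delta-TRRAP. By library size scaling MYC passed as higher, at 0.17.

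The 5 mitoribosomal proteins with other symbols, and so outside the symbol rule, were in the same range. GADD45GIP1 was at -0.68 ± 0.08, AURKAIP1 at -0.51 ± 0.06, PTCD3 at -0.47 ± 0.05 and CHCHD1 at -0.36 ± 0.07 on the log2 scale. These 4 passed as lower, where 28.9% of all genes tested and 48.4% of those with at least 1000 normalized counts did so. DAP3, a GTP-binding protein of the small subunit, was at -0.06 ± 0.05 (adjusted p 0.27, edgeR), with 9600 to 9886 normalized counts in WT against 8917 to 9746 in Delta-TRRAP.

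The RNA components are made in mitochondria. MT-RNR1, the small-subunit rRNA, had 56005, 44144 and 50940 normalized counts in WT and 28597, 32329 and 39241 in Delta-TRRAP, a log2 fold change of -0.59 ± 0.10. MT-RNR2, the large-subunit rRNA, had 364152, 307223 and 336747 in WT and 374635, 391111 and 432229 in Delta-TRRAP, a log2 fold change of 0.25 ± 0.07 (adjusted p 0.0048, edgeR). The 2 rRNAs went in opposite directions, but the call of MT-RNR2 was lost without WT replicate 2, WT replicate 3 or Delta-TRRAP replicate 3. RNA was selected for poly(A) tails, so these counts need not follow the amount of rRNA. Genes of the mitochondrial DNA took 3.18% to 3.71% of reads in WT and 5.07% to 6.24% in Delta-TRRAP.

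Genes that make or use the mitochondrial ribosome were counted from lists. Among all genes tested 28.9% were lower and 29.6% higher, and among those with at least 1000 normalized counts 48.4% and 20.7%. Of 26 tested assembly factors, 10 were lower (38.5%) and 3 higher (11.5%), with a median log2 fold change of -0.10. In this list YBEY, which encodes a ribosomal RNA endonuclease, was at 1.36 ± 0.08, with 240 to 270 normalized counts in WT against 626 to 679 in Delta-TRRAP, and MTG2, a GTPase that acts in assembly of the large subunit, was at -0.83 ± 0.05. Of 14 translation factors, 3 were lower (21.4%) and 3 higher (21.4%), with a median of -0.12. C12orf65, a rescue factor for stalled ribosomes, was at -1.18 ± 0.05 and MTRF1L, a release factor, at 0.60 ± 0.05. Of 19 tested mitochondrial tRNA synthetases and amidotransferase subunits, 8 were lower (42.1%) and 3 higher (15.8%), with a median of -0.11. The largest changes of this list were those of GATC at -0.95 ± 0.05 and MARS2 at -0.79 ± 0.06. Among listed genes that did not pass, MRM2, TSFM and PDF had few counts, with WT means of 5.37, 17.7 and 32.1.

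Genes for transcription and mRNA stability in mitochondria were lower with 1 exception. Of 11, 10 were lower (90.9%) and 1 did not pass, and the median log2 fold change was -0.58. Beside this, 28.9% of all genes tested and 48.4% of those with at least 1000 normalized counts were lower. TFB2M, which opens the mitochondrial promoter, had 5438 to 6128 normalized counts in WT against 2324 to 2620 in Delta-TRRAP, a log2 fold change of -1.22 ± 0.06. SLIRP, which stabilizes mitochondrial mRNA with LRPPRC, was at -1.13 ± 0.09. For comparison, 50 of 82 tested cytosolic ribosomal protein genes (61%) were lower and 3 higher. Their median was -0.31, close to the members' median of -0.27. RPS21 at -1.59 ± 0.09 and RPS29 at -1.16 ± 0.09 were the largest changes of that list.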

How the data were processed

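The authors deposited raw read counts per gene: uniquely mapped reads (STAR, hg38) counted with htseq-count 2.0.2, reverse-stranded, union mode, GENCODE release 32. Reads in more than 1 place or in 2 overlapping genes were dropped. A normalized table, including 3 columns of another condition, and the authors' DESeq2 fold changes and p-values were not used.

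Groups came from sample titles. The test was that of edgeR 4.0.16 (R 4.3.3; TMM, quasi-likelihood F test, group only) on 19114 genes averaging 5 or more normalized counts, with Benjamini-Hochberg adjustment. Calls used adjusted p of 0.01, and separately a fold of 2. The study used DESeq2 with these thresholds. Normalized counts were divided by TMM-scaled library size relative to the geometric mean.

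Genes named in full were the members with the largest changes per subunit, the highest and lowest per length, members placed elsewhere by structure, and the 2 largest changes per other list. Members and lists were chosen with earlier results of these data known. Positions, lengths and shared exons came from GENCODE 44 on GRCh38, which differs from the authors' release. Alternatives were DESeq2 1.42.0, limma-voom (limma 3.58.1), other scalings, filters and thresholds, a replicate block and leaving out each library. The step was run on simulated counts with few genes changed, equally up and down, so that run is no check on the scaling.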

Additional observations from a re-analysis of the deposited data

How the results depend on the processing

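Over the alternative fits other than library size scaling, at adjusted p 0.01, 41 to 44 members were lower and 4 to 7 higher. Of all genes tested, 16.7% to 39.7% were lower and 18.6% to 30.7% higher in these fits. Library size scaling gave 35 and 12, with 6 MRPL and 6 MRPS genes higher, beside 21.2% of all genes lower and 37.7% higher. The MRPL median was then -0.23, the MRPS median was 0.01 (0.0083), and the median of all genes moved to 0.17. The count past a 2-fold change (2) was 1 with DESeq2, 1 with RLE scaling and 0 with library size scaling. It was 1 with TMM on the tested genes (added after the data were seen) and 0 to 6 when each library was left out. At 1.5-fold it was 19, and all genes were not counted at that limit, so the 19 have no baseline. Leaving out each library gave 29 to 31 lower and 2 to 4 higher MRPL genes, 12 to 13 lower and 2 to 3 higher MRPS genes, and medians of -0.42 to -0.35 and -0.19 to -0.13. Of the 43 lower members, 35 remained lower by library size, 41 without WT replicate 2, 42 without Delta-TRRAP replicate 1 and 43 in each other fit. Among named genes, 750 alternative values kept their call, 25 lost it and 3 gained it. CHCHD1 and NRF1 lost it by library size scaling, and ESRRA there and without WT replicate 1. The cause of these changes was not tested.

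Libraries with the same replicate number did not deviate together (correlations -0.0351 to -0.0108), so the numbers give no pairing. With a replicate block 30 MRPL genes were lower and 3 higher, and 13 MRPS genes lower and 2 higher, with medians of -0.38 and -0.15 and 2 members past 2-fold, and of the named genes only GABPA changed its call (adjusted p 0.0231, edgeR).

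Genes that share exons with another gene are limited by depth: MRPS24 and MRPL53 could not be compared with useful precision. Replicate pairs differed by more than sampling noise (chi-square per degree of freedom 5.43 to 17.5).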
